A study of Mus musculus with 5 samples.

Results

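The genes described here are 10 transcription regulators of endothelial cells, the cells that line blood vessels: the SoxF genes Sox7, Sox17 and Sox18, the ETS genes Erg, Fli1 and Ets1, and Tal1, Lyl1, Lmo2 and Gata2, which work together in blood and endothelial cells. They were taken by symbol, and all 10 were present among the 17638 genes of the deposited table. All 10 passed the filter used for testing, a mean normalised read count of at least 10 over the 5 libraries. Polyadenylated RNA had been sequenced from cells labelled as CD31+ endothelial cells, from hearts of C57BL/6 mice aged 2 months, 5 days after myocardial infarction. The 3 control libraries carry the genotype label control, and the 2 others the label Tbx1cko, a knockout of the T-box factor gene Tbx1 that the series calls endothelial. All 5 libraries share the infarction, and no uninfarcted group was analysed here. The sources used here do not give the Cre driver, the alleles of the controls or whether animals were pooled. Nor do they say that the libraries within a group are from different animals: the spread behind each p-value is that between these libraries, and it may be technical.

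SOXF proteins bind DNA through an HMG box and take part in arterial specification and in lymphatic development, where SOX18 acts upstream of Prox1. ERG, FLI1 and ETS1 share the ETS domain, and ETS factors bind at many endothelial enhancers and promoters, among them those of Cdh5 and Tek. TAL1 and LYL1 are paired basic helix-loop-helix proteins that bind E-boxes with an E protein, and LMO2 is the bridge that joins them through LDB1 to a GATA factor such as GATA2. The same genes, apart from the SoxF genes, are widely used in blood cells, so their RNA in a CD31+ preparation need not come from endothelium alone.

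Recovered reads came to 14689782 to 18617284 per library, and 29956 to 42374 of them, 0.18% to 0.228% of a library, lay in the 10 genes. Tbx1 had 64.4, 72.7 and 69.6 normalised reads in controls 1 to 3, against 18.3 and 17.3 in Tbx1cko libraries 1 and 2, so the genotype labels and the target's RNA go together. Control replicate 2 stood apart from the rest: its log2 values correlated with those of the other libraries at r of 0.859 to 0.889 across genes, against 0.98 to 0.988 among the other 4, and its deviation followed transcript GC content (Spearman rho 0.794 across genes). Each result below is therefore also given without that library where it matters. Summed over 12 pan-endothelial markers such as Cdh5 and Tie1, the libraries held 191894 to 306506 normalised reads, and none of the 12 was at 0. Pan-leukocyte markers such as Ptprc were present too, at a summed 10113 to 22695, so the cells were not only endothelial.

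Levels of different genes were compared as normalised reads per kb of exonic length, with all annotated exons of a gene merged. On this scale the mean over the 5 libraries was highest for Sox18, at 2189, and lowest for Tal1, at 201. Between them came Sox7 (1546), Erg (1280), Ets1 (1211), Fli1 (628), Sox17 (620), Lmo2 (555), Gata2 (387) and Lyl1 (259). Of the 9 neighbouring pairs in this order, 8 had ranges that overlapped over the libraries. The exception was Ets1, whose lowest library (1128) lay above the highest of Fli1 (706). Within a library the order was steadier: Sox18 lay above Sox7, Gata2 above Lyl1, and Lyl1 above Tal1 in 5 of 5 libraries, while Fli1 lay above Sox17 in 3 of 5. The per-length level of Erg was 1.92 to 2.42 times that of Fli1 in every library.

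**Figure D1:**
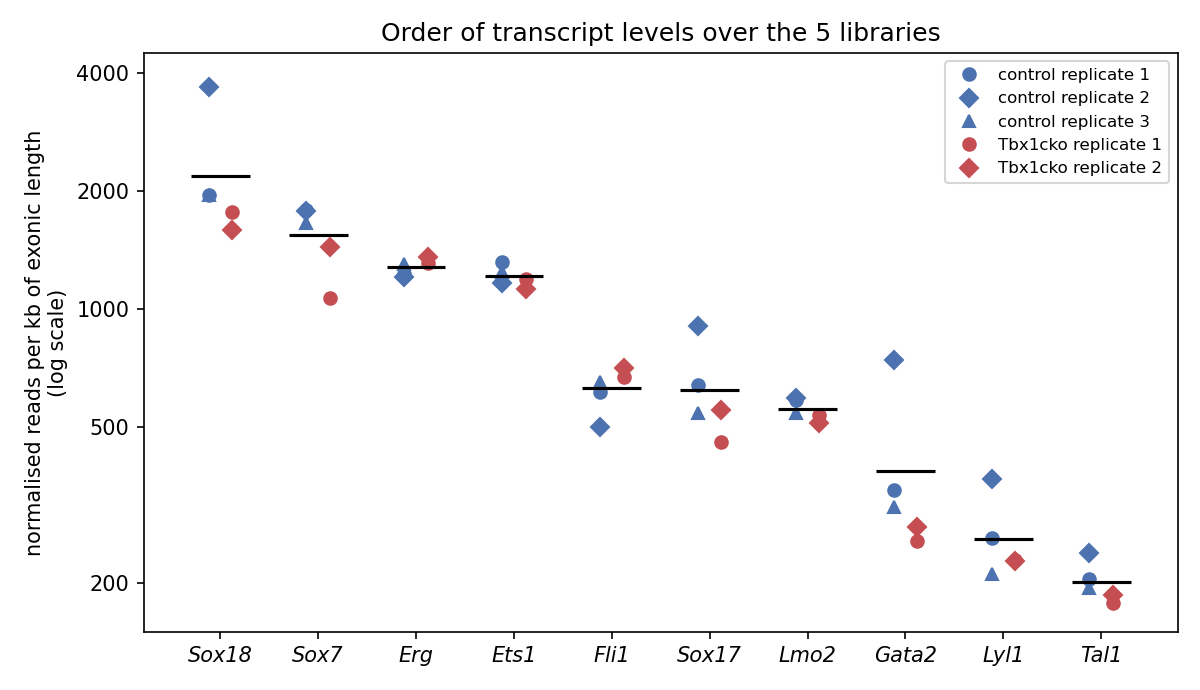
Level of each gene in every library, as normalised reads per kb of exonic length on a log axis, ordered by the mean over the 5 libraries (black bars); blue marks are controls, red marks Tbx1cko. Sox18 lies at the top and Tal1 at the bottom, and control replicate 2 (blue diamonds) is the highest library for Sox18, Sox17, Gata2, Lyl1, Tal1 and Lmo2 and the lowest for Fli1 and Erg.

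The SoxF genes were all lower on average in Tbx1cko, and for Sox7 the 3 controls lay close together. Sox7, which lies on chromosome 14 (63943673 to 63950732, plus strand, GRCm38), had 5915.0, 5860.1 and 5455.6 normalised reads in controls 1 to 3, against 3519.4 and 4752.9 in Tbx1cko libraries 1 and 2. Both Tbx1cko libraries lay below all 3 controls, but they also differed from each other by 0.43 on the log2 scale, close to the difference between the groups. On average, controls held 5744 ± 251 (SD, n = 3) and Tbx1cko 4136 ± 872 (SD, n = 2). The fitted log2 difference, Tbx1cko minus control on log2(normalised count + 1), was -0.49 (SE 0.200, 95% interval -0.99 to 0.01), or 1.40-fold lower. It missed the threshold, with a limma adjusted p of 0.762 over 14339 genes and an unadjusted p of 0.0545. Without control replicate 2 the log2 difference was nearly as large, at -0.47 (95% interval -0.80 to -0.14), with an unadjusted p of 0.00891 and an adjusted p of 0.442. Pan-endothelial markers were lower in Tbx1cko as well, and after scaling to them the log2 difference of Sox7 was -0.24 (95% interval -0.86 to 0.38). The scaling factors were 0.996, 1.29 and 0.942 in controls 1 to 3, against 0.933 and 0.859 in Tbx1cko. Control replicate 2 thus had by far the highest factor, and this scaling was not run without it. In bulk RNA, fewer cells of a type and less RNA per cell cannot be told apart.

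Sox18, the member of the family known for its part in lymphatic vessel formation, lies on chromosome 2 (181669836 to 181671640, minus strand). Its normalised reads were 3163.7, 5965.9 and 3163.4 in the 3 controls, against 2857.2 and 2583.3 in Tbx1cko. The groups did not overlap, yet control replicates 1 and 3 lay close to the Tbx1cko values and control replicate 2 far above all others. The log2 difference was -0.52 (SE 0.336, 95% interval -1.37 to 0.32, adjusted p = 0.762 by limma). It was -0.22 (95% interval -0.48 to 0.04) without control replicate 2 and -0.10 after correction for GC content, so most of the value rested on 1 control library.

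Sox17, known as a gene of arterial endothelium, lies on chromosome 1 (4490931 to 4497354, minus strand). It had 3056.4, 4329.6 and 2591.3 normalised reads in the 3 controls, against 2190.5 and 2634.3 in Tbx1cko. Tbx1cko replicate 2 lay just above control replicate 3, so the groups overlapped. The log2 difference was -0.44 (SE 0.275, 95% interval -1.12 to 0.25, limma adjusted p = 0.762), and -0.23 without control replicate 2. The antisense gene Gm37587 shares 804 bp, 16.8%, of the exonic length of Sox17, but it averaged 4.29 normalised reads. The strand setting of the counting is not given in the sources used here.

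Added together, the SoxF genes gave 12135.1, 16155.6 and 11210.3 normalised reads in the 3 controls, against 8567.2 and 9970.6 in Tbx1cko, again without overlap. Their proportions overlapped between the genotypes for Sox7, Sox17 and Sox18. Per kb of exonic length, Sox18 made up 44.52%, 57.85% and 47.06% of the SoxF sum in controls 1 to 3, against 53.62% and 44.45% in Tbx1cko. Sox7 made up 27.9% to 40.9% in controls, and 32.4% and 40.2% in Tbx1cko. The share of Sox17 stayed between 13.1% and 15.4% in all 5 libraries. Whether the SoxF genes differed from one another in their response was not tested.

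**Figure D2:**
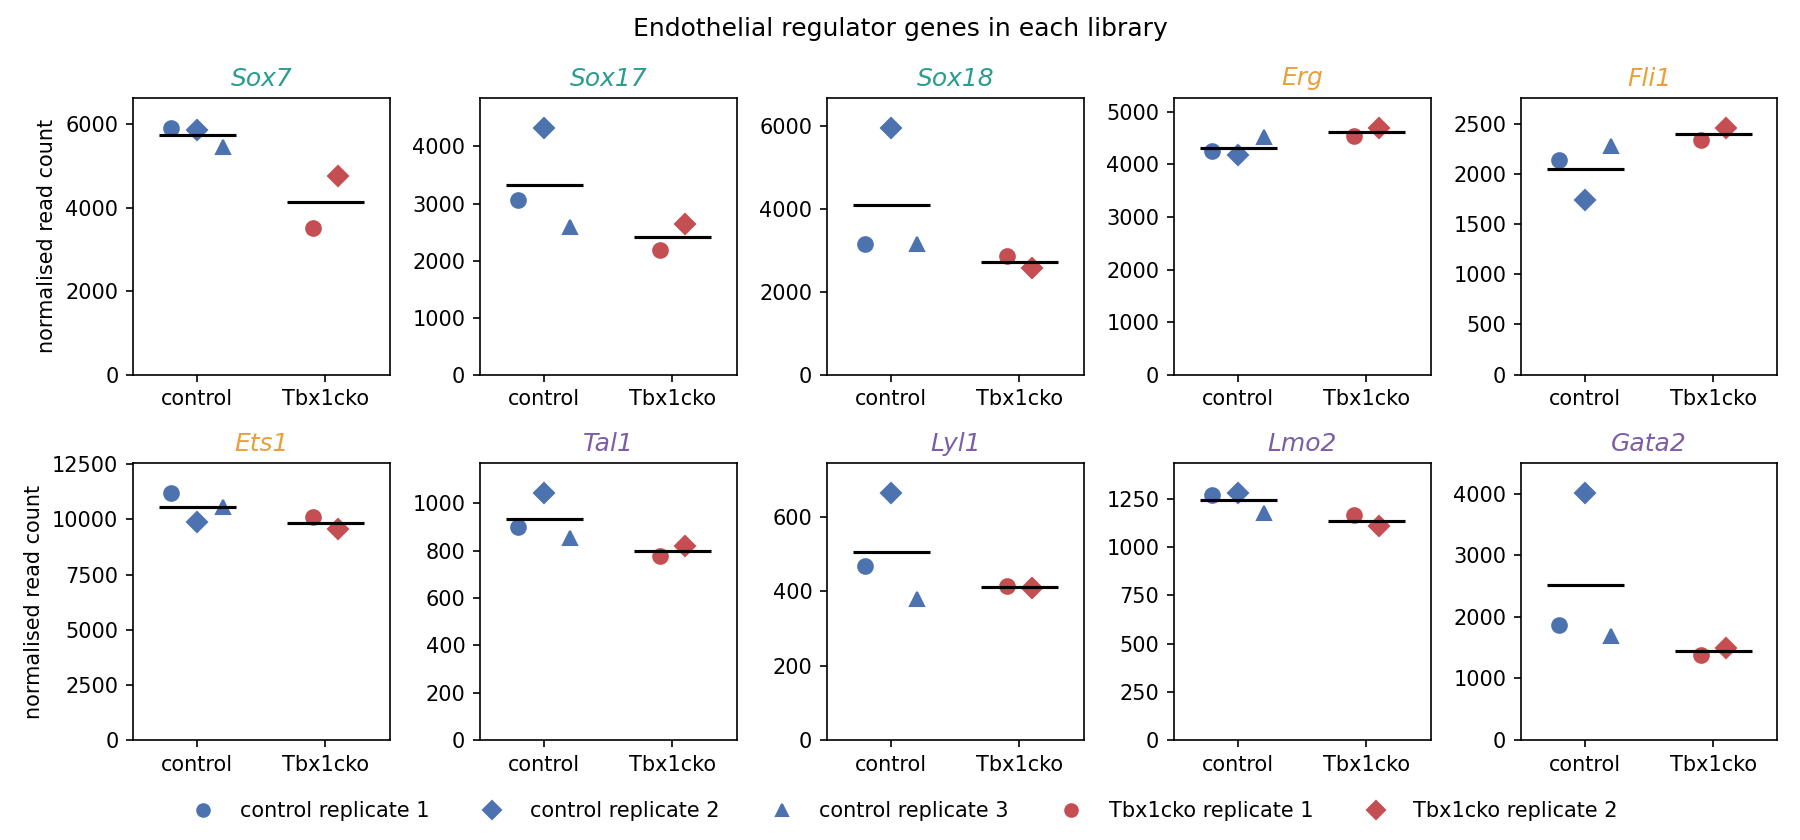
Normalised read count of each of the 10 genes in every library, on linear axes from 0, with controls in blue, Tbx1cko in red, 1 symbol per replicate and a black bar at each group mean. Sox7 is lower in both Tbx1cko libraries than in each control, while control replicate 2 (blue diamonds) sets the control mean of Sox17, Sox18, Lyl1 and Gata2.

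Of the ETS genes, Erg and Fli1 had log2 differences above 0 with all libraries and Ets1 had one below 0. Whether the ETS and SoxF families differed was not tested. Erg, the ETS factor most closely tied to endothelial identity, lies on chromosome 16 (95359169 to 95586593, minus strand), the chromosome that also carries Tbx1. It had 4249.6, 4177.8 and 4527.8 normalised reads in the 3 controls, against 4536.5 and 4697.9 in Tbx1cko. Tbx1cko replicate 1 lay barely above control replicate 3, so the groups were separate by a narrow margin. The log2 difference was 0.10 (SE 0.162, 95% interval -0.31 to 0.50, limma adjusted p = 0.81). It stayed above 0, between 0.06 and 0.35, under all 19 alternatives run, which reuse these libraries and are not separate observations.

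Fli1 and Ets1 are neighbours on chromosome 9, Fli1 at 32422204 to 32542861 on the minus strand and Ets1 at 32636221 to 32757820 on the plus strand. Fli1, which is also a factor of megakaryocytes and other blood cells, had 2140.0, 1738.5 and 2272.4 normalised reads in the 3 controls, against 2332.3 and 2460.0 in Tbx1cko. Both Tbx1cko values were the highest of the 5. The log2 difference was 0.23 (SE 0.201, 95% interval -0.27 to 0.74, limma adjusted p = 0.762), 0.12 without control replicate 2 and -0.19 after GC correction, where its direction turned. Ets1, which is also abundant in T cells, had 11203.0, 9903.7 and 10549.8 normalised reads in the 3 controls, against 10090.0 and 9560.9 in Tbx1cko. The groups overlapped, and the log2 difference was -0.10 (SE 0.160, 95% interval -0.50 to 0.30, limma adjusted p = 0.801). It turned to 0.15 after scaling to pan-endothelial markers and to 0.01 with quantile normalisation. The 3 ETS genes summed to 15819.9 to 17592.5 normalised reads in controls and to 16958.7 and 16718.9 in Tbx1cko. With all 5 libraries and the deposited scaling, the intervals of Erg, Ets1 and Fli1 leave out a change of 2-fold in either direction. After scaling to pan-endothelial markers that of Fli1 was -0.29 to 1.26, which includes a 2-fold increase.

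Gata2, the GATA factor of endothelium and of blood stem cells and mast cells, had the largest fitted difference of the 10 with all 5 libraries, but not without control replicate 2 or after GC correction, where that of Sox7 was larger. It lies on chromosome 6 (88193891 to 88207032, plus strand). Its normalised reads were 1865.5, 4010.4 and 1683.3 in the 3 controls, against 1382.0 and 1500.1 in Tbx1cko. The Tbx1cko values lay below every control, and control replicate 2 lay 1.18 above the mean of the other 2 controls on the log2 scale. With all libraries the log2 difference was -0.69 (SE 0.415, 95% interval -1.73 to 0.35), a 1.62-fold lower level (limma adjusted p = 0.762). Without control replicate 2 it was -0.30 (95% interval -0.57 to -0.03), with an unadjusted p of 0.0329 and an adjusted p of 0.622, and after GC correction -0.35. Mast cells use Gata2 too, and the 7 mast cell markers summed to 1746 to 2369 normalised reads in controls and to 2219 and 1872 in Tbx1cko. Of these, Kit, which other cells also express, had 1695.2 to 2305.3 over the 5 libraries, Cpa3 2.8 to 21.6 and Mcpt4 3.1 to 11.3, and Tpsab1 and Fcer1a were at 0 in 2 libraries each. Their part in the values of Gata2 was not tested.

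Lmo2, the LIM-only bridge of the complex, lies on chromosome 2 (103957986 to 103981878, plus strand) and varied little within groups. It had 1270.0, 1282.2 and 1178.1 normalised reads in the 3 controls, against 1165.2 and 1110.8 in Tbx1cko, which did not overlap. The log2 difference was only -0.13 (SE 0.179, 95% interval -0.58 to 0.32, limma adjusted p = 0.786), and it turned to 0.08 after GC correction and 0.12 after scaling to pan-endothelial markers. Per kb of exonic length, Lmo2 stood at 1.70 and 1.74 times Gata2 in control replicates 1 and 3, at 2.1 and 1.85 times in Tbx1cko, and at 0.797 times in control replicate 2. The order of these genes was thus inverted in that library alone.

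Tal1, on chromosome 4 (115056426 to 115071755, plus strand), had 898.3, 1044.0 and 852.5 normalised reads in the 3 controls, against 779.2 and 818.3 in Tbx1cko, with no overlap. Its log2 difference was -0.22 (SE 0.198, 95% interval -0.71 to 0.28, limma adjusted p = 0.762), -0.13 without control replicate 2, and 0.03 after scaling to pan-endothelial markers, where the direction turned. Its paralogue Lyl1, on chromosome 8 (84701457 to 84704715, plus strand), had 468.9, 664.1 and 380.1 normalised reads in the 3 controls, against 412.5 and 408.6 in Tbx1cko. Both Tbx1cko values lay between control replicates 3 and 1. The log2 difference of Lyl1 was -0.26 (SE 0.294, 95% interval -0.996 to 0.48, limma adjusted p = 0.764), but -0.04 without control replicate 2 and 0.21 after GC correction.

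Tal1 and Lyl1 are described targets of ETS and GATA factors, the families of 4 other genes of this group, and their promoters are therefore shown. RefSeq promoters (GRCm38.p6) were at hand for Erg, Tal1, Lyl1 and Gata2, and the 250 bases before the most upstream start were searched on both strands. Capitals mark the letters GGAAG (ETS core with a following G), or the letters AGATAA that a GATA factor binds, or their reverse complements. The window of Tal1, chr4:115056176-115056425 on the plus strand, holds 1 GATA match and 0 ETS matches. That of Lyl1, chr8:84701207-84701456 on the plus strand, holds 2 ETS matches and 0 GATA matches.
Tal1: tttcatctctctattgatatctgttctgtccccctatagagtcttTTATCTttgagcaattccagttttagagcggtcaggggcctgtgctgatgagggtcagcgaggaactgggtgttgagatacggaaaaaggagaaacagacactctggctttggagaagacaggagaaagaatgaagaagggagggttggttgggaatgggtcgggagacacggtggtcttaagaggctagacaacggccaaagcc
Lyl1: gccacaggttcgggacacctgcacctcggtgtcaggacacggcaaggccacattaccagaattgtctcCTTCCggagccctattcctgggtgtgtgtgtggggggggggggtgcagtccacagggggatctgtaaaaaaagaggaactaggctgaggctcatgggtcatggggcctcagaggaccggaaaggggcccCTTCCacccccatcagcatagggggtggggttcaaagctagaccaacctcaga
Of 27025 promoters of this length, 63.7% held the ETS letters and 10.2% the GATA letters, so such a match is common, the ETS one above all. The SOX letters ACAAT (28.2% of promoters) and the E-box CANNTG (66.1%) were searched too, and of the 4 windows that of Lyl1 held 1 of each. The windows of Erg and Gata2 held none of these letters. These matches describe the sequence and were not tested for binding.

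The gap between control replicate 2 and the other controls followed the GC content of the 10 transcripts. Fli1, with 44.5% GC in its longest transcript, was 0.34 lower in control replicate 2 than the mean of replicates 1 and 3 on the log2 scale (difference -0.34), and Ets1, at 47.3% GC, differed by -0.13. Erg (50.8% GC) and Sox7 (51.0%) differed by -0.07 and 0.04. Tal1 (52.8%) and Lmo2 (53.9%) differed by 0.25 and 0.07. Sox17 (52.6% GC) differed by 0.62, Lyl1 (62.6%) by 0.65, Sox18 (60.9%) by 0.91 and Gata2 (58.2%) by 1.18. Across the 10 genes, which share these libraries, Spearman's rho with GC content was 0.903.

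**Figure D3:**
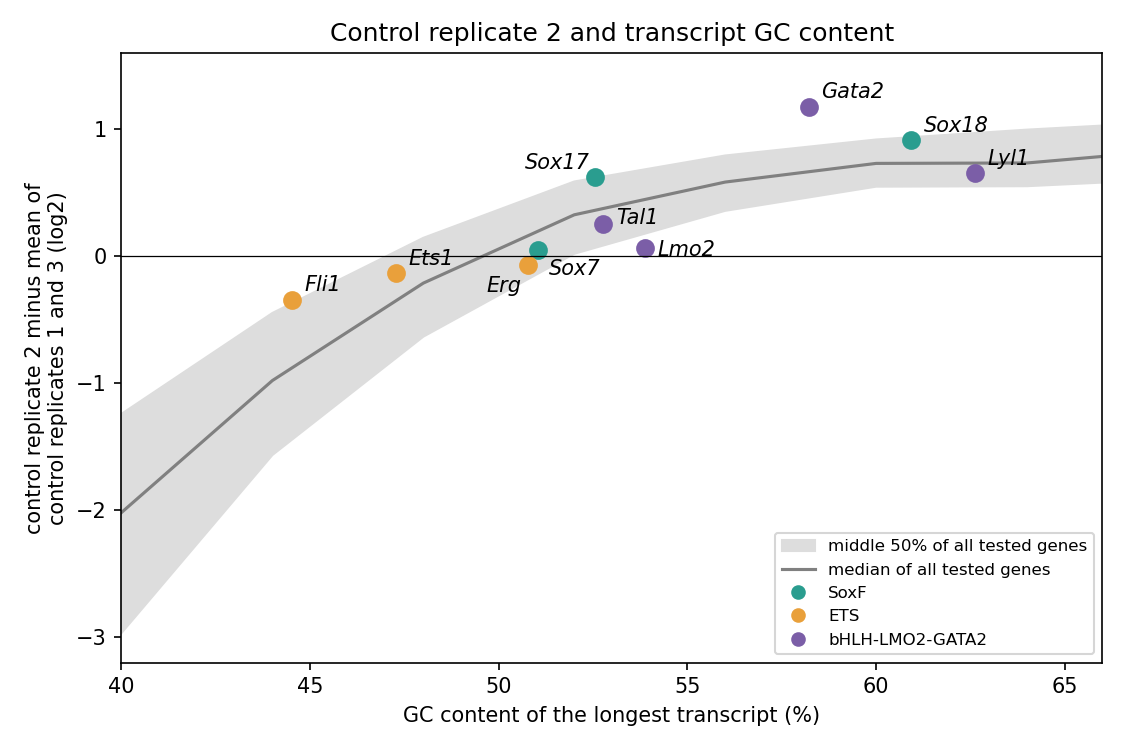
Log2 difference of control replicate 2 from the mean of control replicates 1 and 3 against the GC content of the longest transcript, for the 10 genes (points, coloured by family) and for all tested genes with a GC value (grey line, median in bins of 4 percentage points; grey band, middle 50%). Fli1 lies below 0 and Gata2, Sox18, Lyl1 and Sox17 lie above it, while Sox7 and Erg lie near 0.

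With limma 0 of the 10 genes passed an adjusted p of 0.05, and 0% of all genes tested did. At an unadjusted p under 0.05 the count was 0 of 10, where 1.74% of all genes passed. With edgeR and DESeq2 it was also 0 of 10 by either measure. Of all 14339 genes, edgeR called 0 by adjusted p and 284 by unadjusted p, and DESeq2 4 and 339. The median log2 difference of the 10 was -0.24, beside 0.03 over all genes tested, and 8 of 10 were below 0, beside 47.6% of all genes. Every Tbx1cko value lay below every control value for 5 genes (Sox7, Sox18, Tal1, Lmo2 and Gata2), where 13.9% of all genes did so, and above for 2 (Erg and Fli1), where 14.2% did. Without control replicate 2 the median was -0.14, the groups did not overlap for 6 genes lower (17.7% of all genes) and 2 higher (19.7%), and Sox7 and Gata2 had an unadjusted p under 0.05, as 7.42% of all genes did. At an adjusted p of 0.05 that fit called 0 of the 10 and 0.0209% of all genes. After scaling to pan-endothelial markers, which moved the median of all genes to 0.28, the median of the 10 was 0.01. There 5 of 10 were below 0, beside 25.6% of all genes. Across genes the log2 difference itself followed transcript GC content (Spearman rho -0.713, and -0.306 without control replicate 2). After GC correction the median of the 10 was -0.14, beside -0.004 over all genes. With GC correction and without control replicate 2 it was -0.068, beside 0.009. The part of GC content in the place of the 10 among all genes was not tested.

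**Figure D4:**
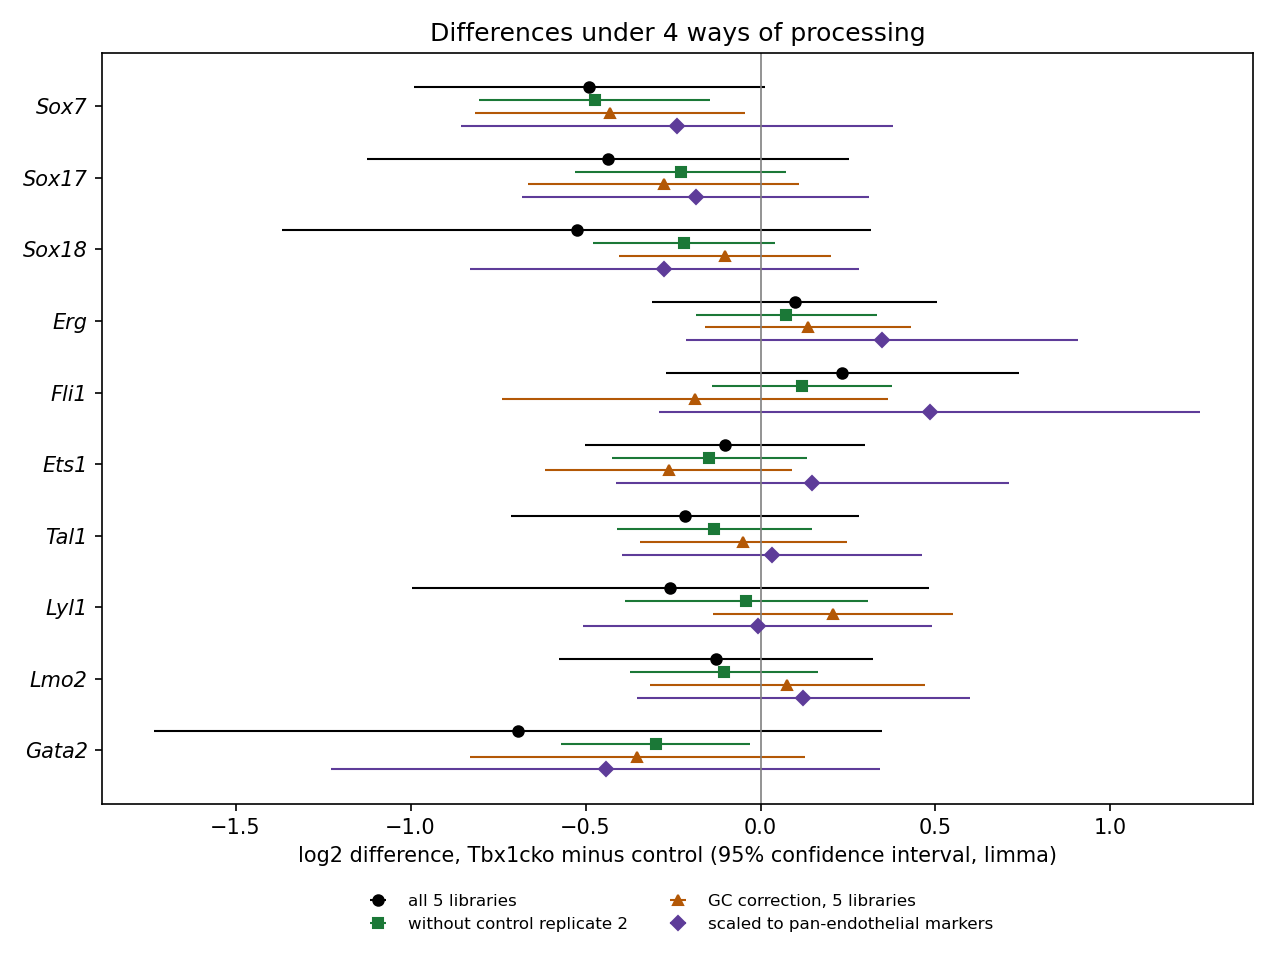
Log2 difference, Tbx1cko minus control, with its 95% confidence interval from limma for each gene, with all 5 libraries, without control replicate 2, after GC correction and after scaling to pan-endothelial markers. The intervals of Sox7 lie below 0 without control replicate 2 (-0.80 to -0.14) and after GC correction (-0.82 to -0.04). That of Gata2 lies below 0 without control replicate 2 (-0.57 to -0.03). After GC correction Sox7 had a limma adjusted p of 0.818, and 557 of 13771 genes had an unadjusted p under 0.05. Fli1, Ets1, Tal1, Lyl1 and Lmo2 change side between settings.

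Relatives and partners of these genes were read from lists made with earlier results known, and 0 members of any of them passed an adjusted p of 0.05 in limma. Among 8 tested SOX genes outside the SoxF family, 6 had a log2 difference below 0. The 2 with the smallest unadjusted p were Sox4, with 436.1, 732.2 and 490.2 normalised reads in controls and 266.2 and 325.1 in Tbx1cko (log2 difference -0.87), and Sox6, with 49.7, 62.5 and 50.8 against 22.0 and 36.7 (-0.90). Neither pair of groups overlapped, and without control replicate 2 the differences were -0.65 and -0.80. Sox4 was the member of that list with an unadjusted p under 0.05, at 0.0304.

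Of 15 tested ETS genes other than Erg, Fli1 and Ets1, 9 were below 0 and 6 above, with a median of -0.04. Without control replicate 2 the count below 0 was 12 and the median -0.14. The SRF partner gene Elk4 had 1787.5, 1111.1 and 1737.9 normalised reads in controls and 1996.6 and 2053.4 in Tbx1cko (log2 difference 0.42, 0.20 without control replicate 2), and the repressor gene Erf 2844.0, 3733.5 and 2417.3 against 2056.0 and 2610.9 (-0.35, but -0.18 without control replicate 2 and 0.04 after GC correction). All 3 other tested GATA genes were below 0, with a median of -0.71 (-0.46 without control replicate 2). The median with all libraries was the value of Gata3, a gene with few reads whose groups overlapped. It had 15.8, 60.7 and 27.3 normalised reads in controls and 11.0 and 28.5 in Tbx1cko, and its log2 difference without control replicate 2 was -0.21. Gata6 had 315.2, 390.9 and 336.9 normalised reads in controls and 211.3 and 266.0 in Tbx1cko (-0.54). For Gata4, an endocardial and cardiac gene, the values were 281.3, 519.7 and 243.7 against 196.6 and 152.9 (-0.92, and -0.59 without control replicate 2). Gata1, the erythroid member, has no row in the deposited table.

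Of 10 partners of TAL1, LMO2 and GATA2, 6 were below 0, with a median of -0.22. The corepressor gene Cbfa2t3 had 1406.7, 2266.4 and 1227.9 normalised reads in controls and 918.3 and 1087.3 in Tbx1cko (-0.66, and -0.40 without control replicate 2), and the GATA cofactor gene Zfpm1, which encodes FOG1, 946.9, 1627.2 and 789.4 against 819.5 and 592.1 (-0.62, but -0.31 without control replicate 2 and -0.09 after GC correction). In both, control replicate 2 was the highest library, as for Gata2.

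Other endothelial transcription factors were mostly lower too: 15 of 19 were below 0, with a median of -0.35, and in 8 of the 19 every Tbx1cko value lay below the controls, as in 13.9% of all genes. By unadjusted p the first of this list was Foxc2, a lymphatic valve factor, at a log2 difference of -1.17 (-0.98 without control replicate 2, -0.72 after GC correction), with 240.7, 407.5 and 317.1 normalised reads in controls and 148.2 and 131.5 in Tbx1cko, and the next was Nfatc1 at -0.50. Of 24 endothelial genes described as targets of SOXF, ETS or GATA2 factors, 21 were below 0, with a median of -0.21. In 13 every Tbx1cko value lay below the controls, beside the same 13.9% of all genes. Of all genes tested, 47.6% were below 0. The 24 include all 12 pan-endothelial markers, so these targets and those markers are not separate observations. Cldn5, a tight junction gene, had 5789.6, 8063.1 and 4520.3 normalised reads in controls and 4038.0 and 3770.6 in Tbx1cko (-0.61, -0.39 without control replicate 2, -0.20 after GC correction), and for Notch1 the difference was -0.82 (-0.52 without control replicate 2 and after GC correction). Without control replicate 2 the medians of these 2 lists were -0.28 and -0.12.

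Summed marker levels of several cell types also differed between the groups. Pan-endothelial markers summed to 224169, 306506 and 211381 normalised reads in controls 1 to 3 and to 208133 and 191894 in Tbx1cko, with 11 of 12 below 0. Pan-leukocyte markers summed to 20484, 10113 and 18285 in controls 1 to 3 and to 21664 and 22695 in Tbx1cko, with 6 of 6 above 0. Control replicate 2 thus lay far from the other controls in both sums. The other controls lay closer to Tbx1cko, without overlap. The counts above and below 0 and the ranges that follow include control replicate 2. Macrophage and monocyte markers, 10 of 12 above 0, overlapped between the groups (71460.5 to 114318 and 108306 to 109258), and Ccr2 was at 0 in control replicate 2. Platelet markers, 5 of 8 above 0, summed to 1418 to 2432 and to 3266 and 3739, and lymphatic endothelial markers, 7 of 7 below 0, to 11205 to 14484 and to 8168 and 9568. Pericyte and smooth muscle markers, 8 of 9 below 0, summed to 45878 to 59027 in controls and to 38025 and 40271 in Tbx1cko, and neutrophil markers, 5 of 5 above 0, to 584 to 936 and to 1319 and 1299. T and NK cell markers summed to 275.0 to 394.3 in controls and to 290.8 and 346.5 in Tbx1cko. The part of these marker levels in the values of Fli1, Ets1, Tal1, Lyl1, Lmo2 and Gata2, which blood cells also express, was not tested.

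For each gene the 2 other genes with the nearest profile were found among 11620 genes with a mean of at least 50, by the root mean square difference of log2 values centred on each gene's mean over the 5 libraries. Nr4a2, an orphan nuclear receptor gene, was nearest to Sox7 (distance 0.0499), with 3393.1, 3194.5 and 3260.4 normalised reads in controls and 2089.0 and 2663.9 in Tbx1cko, followed by Cap2 (0.0626). Ulk1 (0.0180) and Thbd (0.0333), the thrombomodulin gene, were nearest to Sox17, and Leng8 (0.0110) and Gltscr1 (0.0290) to Sox18. Mark3 was nearest to Erg (0.00355), Trim37 to Fli1 (0.0240), Ing5 to Ets1 (0.0323), Elp3 to Tal1 (0.0139), Rps19bp1 to Lyl1 (0.0106), Ccnk to Lmo2 (0.0214) and Atp2a3 to Gata2 (0.0132). The second nearest were Dnajc5 for Erg (0.0204), Acp2 for Fli1 (0.0274), Ptk2 for Ets1 (0.0336), Ankrd50 for Tal1 (0.0140), Zhx2 for Lyl1 (0.0231), Fgf11 for Lmo2 (0.0228) and Plxnb1 for Gata2 (0.0273). The median distance to all candidates was 0.286 to 0.570, and control replicate 2, which stands apart, enters every distance. Among the 10 genes themselves, Ets1 and Lmo2 were the closest pair (0.0753) and Fli1 and Gata2 the farthest (0.721).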

How the data were processed

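The deposited unit is a signal: reads of each of 17638 symbols over 1 size factor per library. The submitters' processing notes list DESeq2 1.20.0, DESeq, STAR 2.5.2b and R 3.5.1, with GRCm38 (mm10) as the build. How reads were counted, with which annotation and strand setting, is not stated there. Within 0.01, 100% of values were whole multiples of the smallest value above 0 of their library, which gave the reads.

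Groups and replicate numbers came from the sample titles. For 14339 genes with a mean of at least 10, genotype was tested 2-sided on log2(normalised count + 1) by limma 3.58.1 in R 4.3.3 (trended prior, Benjamini-Hochberg over all genes). The pseudocount understates changes of low genes. edgeR 4.0.16 and DESeq2 1.42.0 on the recovered reads, other pseudocounts, filters and scalings, a GC correction (loess, span 0.3, for the 96% of tested genes with a GC value), a replicate block and leaving out each library were alternatives. Positions, exonic lengths and GC content came from GENCODE M21 on GRCm38, with 16771 symbols matched. Chi-square per degree of freedom between replicate reads was at least 14.2 for the pairs compared (control replicates 1 and 3, control replicates 1 and 2, and the Tbx1cko pair), so each library counted once. The 10 genes and all lists were chosen with earlier results of these data known. Named genes were the 10, Tbx1, the 2 of each list with the smallest unadjusted p where none passed, and the 2 nearest profiles of each gene. Gata3 and other markers were named as examples or for their level after the values were seen.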

Additional observations from a re-analysis of the deposited data

How the results depend on the processing

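Over 19 alternatives 0 of the 10 genes passed an adjusted p of 0.05, with a smallest value of 0.199 (Sox7, DESeq2 without control replicate 2). That fit called 77 of all 14347 genes, the most of any alternative. Sox7, Sox17, Sox18 and Gata2 stayed below 0 and Erg above 0 in all 19, Sox7 between -0.71 and -0.24. All 19 reuse the same libraries, and changing the filter left the log2 differences of the 10 as they were. Their number is therefore no measure of support for a direction. Directions turned after GC correction for Fli1 (-0.19), Lyl1 (0.21, and 0.17 also without control replicate 2) and Lmo2 (0.077). They turned after scaling to pan-endothelial markers for Ets1 (0.15), Tal1 (0.033) and Lmo2 (0.12), and with quantile normalisation for Ets1 (0.0053). The cause was not tested.

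With pan-endothelial scaling the median of the 10 went from -0.24 to 0.012, and that of all genes from 0.028 to 0.275. With GC correction and without control replicate 2 the median of the 10 was -0.068. When libraries were left out it lay between -0.36 (without control replicate 3) and -0.14 (without control replicate 2). Genes lower without overlap were 2 with pan-endothelial scaling (5.86% of all genes) and 3 after GC correction (13.1%). Genes higher without overlap were 1 after GC correction (12.9% of all genes), and 1 with GC correction and without control replicate 2 (19.3%). Tbx1 passed with DESeq2 (log2 difference -1.95, adjusted p = 0.0349), against -1.89 and an adjusted p of 0.762 in limma, and missed the threshold in the other alternatives that gave it an adjusted p. With a filter at 50 it was not tested, and DESeq2 without control replicate 2 gave it none (log2 difference -1.92).

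Titles number the libraries 1 and 2 in both groups, but nothing says that equal numbers share an animal or day. The deviations of same-numbered libraries from their group means correlated at -0.06 and -0.05. With 2 Tbx1cko libraries these deviations mirror each other, so unlike-numbered libraries gave 0.06 and 0.05. Such values cannot decide whether the libraries are paired. With a replicate block the median of the 10 was -0.36 and 0 of 10 passed, while limma called 3 of all genes. Control replicate 3 has no partner in that block, so the log2 differences of the 10 equal those without it. For direction, these alternatives are therefore not separate. Each of the 10 had at least 380.1 normalised reads in every library, and the number of libraries limits the precision.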
